A study of Drosophila melanogaster with 4 samples.

Results

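The genes of chromosome 4 were followed in testes of Drosophila melanogaster as 68 of the 16510 gene names in the deposited tables, chosen by position and by an average level, over all 4 libraries, of no less than 1 FPKM. FPKM counts fragments relative to the length of the transcript and the depth of the library. The tables held 104 names on this chromosome. Of these, 34 lay under that mean, and RpS3A and ATPsyn-beta, a ribosomal protein gene and an ATP synthase gene, were left out by the rule. The series set testes of flies labelled Su(var)3-9 mutant (2 libraries) against testes of wild-type flies (2 libraries). Males were 3 days old and were kept at 23 °C, each library held polyadenylated RNA of 50 dissected testes, and the series calls the replicates biological. The sources used here give neither the allele of the mutant nor the strain of the wild type. Whole testes hold germ cells of every stage along with somatic cells, and in such bulk samples fewer cells of a type and less RNA per cell cannot be told apart.

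Chromosome 4 is the smallest chromosome of this fly. Most of its gene-bearing arm carries heterochromatin marks, methylation of histone H3 at lysine 9 and the protein HP1a, yet its genes are transcribed. Su(var)3-9 is the methyltransferase that places this mark mainly in heterochromatin next to centromeres, while on chromosome 4 the mark is known to depend largely on another enzyme, eggless, and the protein of the gene Pof binds the genes there. Many chromosome 4 genes are long and encode regulators of development and of neurons.

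In depth, an estimated 1446647 and 1468278 fragments stood behind the mutant-labelled libraries, against 3207719 and 3366747 behind the wild-type libraries, so depth and genotype cannot be told apart. For the members the median estimate was 40.6 and 33.6 fragments per gene in the mutant-labelled libraries and 112 and 116 in wild-type libraries. Su(var)3-9 itself was listed at 0 and at 7.83 FPKM in the mutant-labelled libraries, against 7.93 and 9.74 FPKM in wild-type libraries (limma adjusted p = 0.339), so its level did not set the second mutant-labelled library apart. Of 19 male germline markers nos was listed at 0 in all libraries, and their summed level was 25033 and 23983 FPKM in the mutant-labelled libraries, against 17067 and 16085 FPKM in wild-type libraries. Of the 18 tested, 3 were higher (Mst87F, ocn and Mst98Ca) and 2 were lower (bgcn and bol). The sums rest mostly on a few abundant genes. Mst87F alone was at 12608 and 11433 FPKM in the mutant-labelled libraries, against 7070 and 6218 FPKM in wild-type libraries. The summed level of 7 markers of cyst cells and hub was 56.1 and 52.1 FPKM in the mutant-labelled libraries, against 55.3 and 47.0 FPKM in wild-type libraries. Of 14 accessory gland markers found, Acp95EF was listed at 0 in all libraries. Their summed level was 63.9 and 198 FPKM in the mutant-labelled libraries, against 7650 and 6.13 FPKM in wild-type libraries, so wild type replicate 1 held far more of their RNA than the other libraries. Of 8 markers of fat body and haemocytes, Yp1 was listed at 0 in all libraries. Their summed level was 289 and 267 FPKM in the mutant-labelled libraries, against 259 and 253 FPKM in wild-type libraries. Most of it was ppl, at 277 and 247 FPKM in the mutant-labelled libraries, against 249 and 242 FPKM in wild-type libraries. The part of depth and of these other tissues in the differences below was not tested.

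The median level of the members was 10.8 FPKM in the mutant-labelled libraries and 12.97 FPKM in wild-type libraries, against 13.6 and 14.3 FPKM over all 10784 tested genes. The highest level was that of Arf102F, now Arf4, a small GTPase of the secretory pathway, with 168 and 132 FPKM in the mutant-labelled libraries and 175 and 135 FPKM in wild-type libraries. The replicates of that gene differed more than the genotypes. CR43437, a non-coding RNA gene, came next with 102 and 114.6 FPKM in the mutant-labelled libraries and 105 and 114.6 FPKM in wild-type libraries, and among members of at least 10 FPKM its fold change was nearest to 0 (fold change on the log2 scale, log2FC, -0.02, SE 0.10). After these came CR44027, JYalpha, Rad23, lgs, CG11076, Crk, PIP4K and pho, whose means over the 4 libraries lay between 79.6 and 45.3 FPKM. In this order the ranges over the 4 libraries overlapped between neighbours from CR44027 to CG11076 and from Crk to pho. They were apart between Arf102F and CR43437, between CR43437 and CR44027, and between CG11076 and Crk.

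Of the 34 names under the mean, 20 were listed at 0 in all libraries, 5 of them protein-coding genes. Those 5 included sv and zfh2, transcription factors of eye, bristle and wing development. Exons of all 5 overlap those of a member on the other strand, over 8.52% of their length for sv and 18.7% for zfh2. Their listed 0 is therefore not read as absence. The members just inside the mean were Kif3C, CR45126 and Syt7, at 1.0004, 1.29 and 1.35 FPKM, and the names just outside were Actbeta, CG33978 and CG9935, at 0.678, 0.663 and 0.662 FPKM. For 65 members the mean was at least 1 FPKM in each genotype, 2 members passed through the mutant-labelled libraries alone and 1 through the wild type alone. Of the 68 members, 65 were above 0 in all 4 libraries.

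In the comparison of the genotypes, 17 of the 68 members (25%) were lower in the mutant-labelled libraries and 3 (4.41%) were higher by limma at an adjusted p under 0.05. Over all 10784 tested genes 20.1% passed, 8.67% lower and 11.4% higher. The 17 include CR45201, which entered through the wild-type libraries alone, with 2 of its levels listed at 0, and without it 16 were lower. With a trend on transcript length removed, 8 members were lower and 1 was higher, against 5.78% and 7.81% of all genes in that fit. Quantile normalization turned the balance over all genes to 9.11% lower and 7.87% higher, with 16 members lower and 3 higher. The median log2 fold change was -0.37 over the members and -0.01 over all tested genes, and it was below 0 for 52 of the 68 members (76.5%), against 50.6% of all tested genes. The libraries of the genotypes did not overlap for 40 members that were lower and 11 that were higher in the mutant-labelled libraries, against 32.7% and 32.2% of all tested genes. RpS3A and ATPsyn-beta, left out by the rule, were both called higher. RpS3A was at 412 and 372 FPKM in the mutant-labelled libraries, against 296 and 271 FPKM in wild-type libraries. With them, 5 of the 70 tested genes of chromosome 4 were higher (7.14%) and 17 were lower (24.3%). No set test was run, so the shares of the members only describe them beside the rest.

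The summed level of the members was 1463 and 1381 FPKM in the mutant-labelled libraries, against 1753 and 1725 FPKM in wild-type libraries. Both wild-type sums were higher than both others. RpS3A and ATPsyn-beta, both called higher, are not in these sums. An exact permutation test gave p = 0.333 (two-sided), the smallest that 2 against 2 libraries allow. As a share of all FPKM in the library, the sum was 0.142% and 0.138% in the mutant-labelled libraries, against 0.206% and 0.213% in wild-type libraries. All FPKM came to 1028898 and 1004211 in the mutant-labelled libraries, against 851134 and 810704 in wild-type libraries. The share thus moved with this total as well as with the members. The calls needed all 4 libraries. Each library was also left out in turn, which leaves 1 library in a genotype, so only fold changes are given here. The median log2 fold change of the members stayed between -0.39 and -0.33 in these 4 fits.

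**Figure D1:**
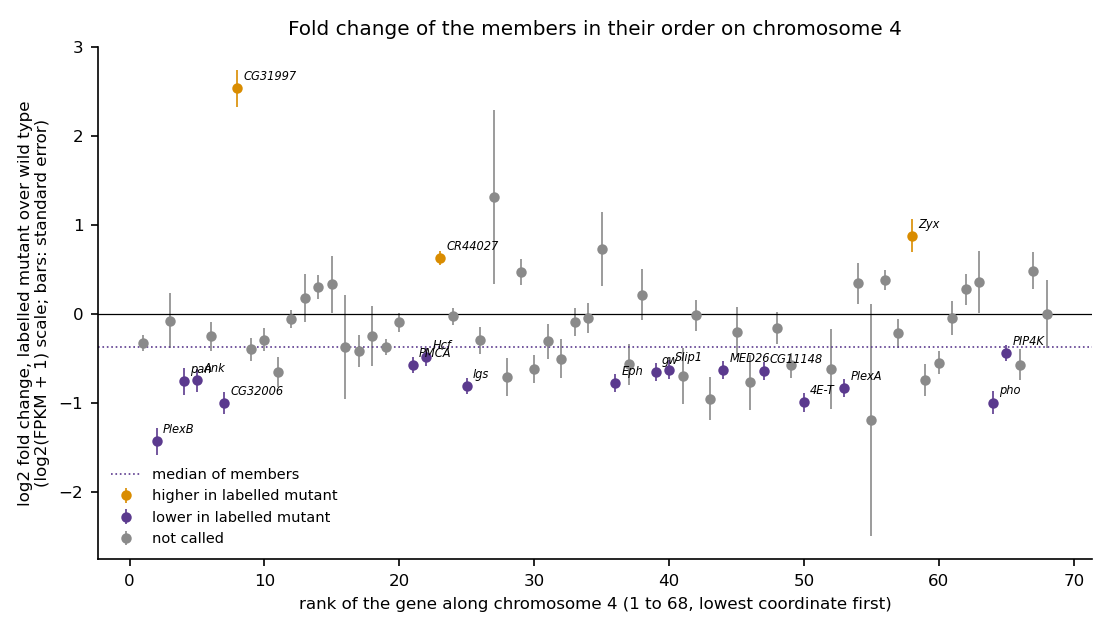
Fold change (log2, labelled mutant over wild type, on the log2(FPKM + 1) scale) of 67 members, in their order along chromosome 4 from the lowest coordinate, with standard errors and names for members past the threshold. Lower members stood along the whole arm, most points lay between 0 and -1, and the dotted line marks the median of -0.37. CR45201 is not drawn, as its mutant-labelled libraries were listed at 0, but it counts in the rank and the median.

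Transcription and chromatin factors formed the largest role list, and 5 of its 9 members were lower, 4 did not pass and none was higher (median log2 fold change -0.63). Over all tested genes 8.67% were lower and 11.4% higher, and with the length trend removed 5.78% and 7.81% were. The list had a median transcript of 4989 bases, and of all tested genes over 5000 bases 26.4% were lower. The fold change was below 0 for all 9 members of the list. With the length trend removed 2 of them, lgs and pho, were lower, pan, MED26 and Hcf did not pass (limma adjusted p = 0.284, 0.163 and 0.934), and the median was -0.33. In Wnt signalling pan is the DNA-binding factor and lgs (legless) couples it to its coactivators. The gene lgs was at 52.1 and 47.3 FPKM in the mutant-labelled libraries, against 87.0 and 88.4 FPKM in wild-type libraries (log2FC -0.81, SE 0.09, limma adjusted p = 0.0138). It lies at chr4:436957-443911 on the minus strand in dm6. The gene pan was at 5.12 and 5.09 FPKM in the mutant-labelled libraries, against 9.13 and 9.52 FPKM in wild-type libraries (-0.76, SE 0.15, adjusted p = 0.0408). Libraries of each genotype stood close together for both genes and did not overlap, as held for all 17 lower members. This goes with being called and adds nothing to the call.

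The Polycomb group gene pho encodes a protein that brings repressive complexes to DNA. It was at 32.8 and 27.1 FPKM in the mutant-labelled libraries, against 58.9 and 62.2 FPKM in wild-type libraries (log2FC -0.996, SE 0.13, limma adjusted p = 0.0176). The wild-type mean was 2.02 times that of the mutant-labelled libraries. MED26, a subunit of the Mediator complex, was at 27.7 and 26.6 FPKM in the mutant-labelled libraries, against 44.6 and 40.6 FPKM in wild-type libraries (-0.63, adjusted p = 0.0274). Hcf, a chromatin cofactor, was at 21.8 and 22.1 FPKM in the mutant-labelled libraries, against 30.2 and 32.0 FPKM in wild-type libraries (-0.48, adjusted p = 0.0439). The other members of the list, Mitf, ci, fd102C and Sox102F, did not pass. The gene ci, the transcription factor of Hedgehog signalling, averaged 2.11 ± 0.826 FPKM in the mutant-labelled libraries and 2.23 ± 0.155 FPKM in wild-type libraries (SD, n = 2 each). Of the eye regulators on this chromosome, ey and toy stayed under the mean of 1 FPKM.

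All 4 members of the list for translation and mRNA control had a fold change below 0 (median log2 fold change -0.65). Against 8.67% of all tested genes, 3 of the 4 were lower. With the length trend removed 4E-T alone of these was lower, gw and CG11148 did not pass (limma adjusted p = 0.110 and 0.127), and the median was -0.31. These genes act on messenger RNA in the cytoplasm: 4E-T binds the cap-binding protein eIF4E and holds messages back, gw (GW182) carries out silencing by microRNAs, and CG11148, now Gyf, encodes a GYF-domain protein that represses translation. The level of 4E-T (chr4:951542-958392, minus strand) was 20.04 and 22.1 FPKM in the mutant-labelled libraries, against 41.8 and 43.9 FPKM in wild-type libraries (-0.99, SE 0.11, limma adjusted p = 0.0135). That of gw was 31.2 and 29.2 FPKM in the mutant-labelled libraries, against 46.0 and 50.0 FPKM in wild-type libraries (-0.65, adjusted p = 0.0246). That of CG11148 was 20.5 and 19.4 FPKM in the mutant-labelled libraries, against 31.6 and 31.8 FPKM in wild-type libraries (-0.64, adjusted p = 0.0254). In all 3 the genotypes were apart by more than the replicates, which goes with being called. eIF4G, the scaffold of cap-dependent initiation, was at 16.3 and 13.4 FPKM in the mutant-labelled libraries, against 22.3 and 22.6 FPKM in wild-type libraries. It did not pass (-0.57, adjusted p = 0.0621), and with the length trend removed it came to -0.18 (limma adjusted p = 0.464).

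Of the 8 members among secreted signals and their receptors (median log2 fold change -0.49), 3 were lower, against 8.67% of all tested genes. None was higher, against 11.4%, and 5 did not pass. With the length trend removed PlexB was lower, PlexA and Eph did not pass (limma adjusted p = 0.110 and 0.0655), and the median was -0.24. The 3 lower ones were cell surface receptors: the semaphorin receptors PlexA and PlexB and the ephrin receptor Eph. PlexB (chr4:32478-43778, minus strand) was at 3.73 and 3.85 FPKM in the mutant-labelled libraries, against 11.5 and 12.3 FPKM in wild-type libraries (-1.43, SE 0.15, limma adjusted p = 0.0136). This was the largest fall among members above 0 in all libraries, and the wild-type mean was 3.15 times the other. PlexA was at 29.4 and 31.9 FPKM in the mutant-labelled libraries, against 53.5 and 57.2 FPKM in wild-type libraries (-0.83, adjusted p = 0.0156). Eph was at 16.2 and 16.5 FPKM in the mutant-labelled libraries, against 28.5 and 28.8 FPKM in wild-type libraries (-0.77, adjusted p = 0.0185). The replicates of each of these receptors lay close together, and the genotypes did not overlap, as held for all 17 lower members.

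The ligands did not pass. Ephrin, the ligand of Eph, averaged 9.50 ± 1.503 FPKM in the mutant-labelled libraries and 9.80 ± 0.298 FPKM in wild-type libraries (SD, n = 2 each), and its libraries overlapped. The TGF-beta family ligand myo (myoglianin) averaged 7.49 ± 1.07 FPKM in the mutant-labelled libraries and 7.55 ± 0.584 FPKM in wild-type libraries. Another ligand of that family, mav (maverick), was at 3.84 and 4.01 FPKM in the mutant-labelled libraries, against 7.53 and 5.23 FPKM in wild-type libraries (log2FC -0.57, limma adjusted p = 0.169). Crk, an adaptor protein that links receptors to their pathways, was at 48.4 and 49.6 FPKM in the mutant-labelled libraries, against 54.3 and 48.2 FPKM in wild-type libraries, with overlapping libraries. A difference between receptors and ligands was not tested.

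**Figure D2:**
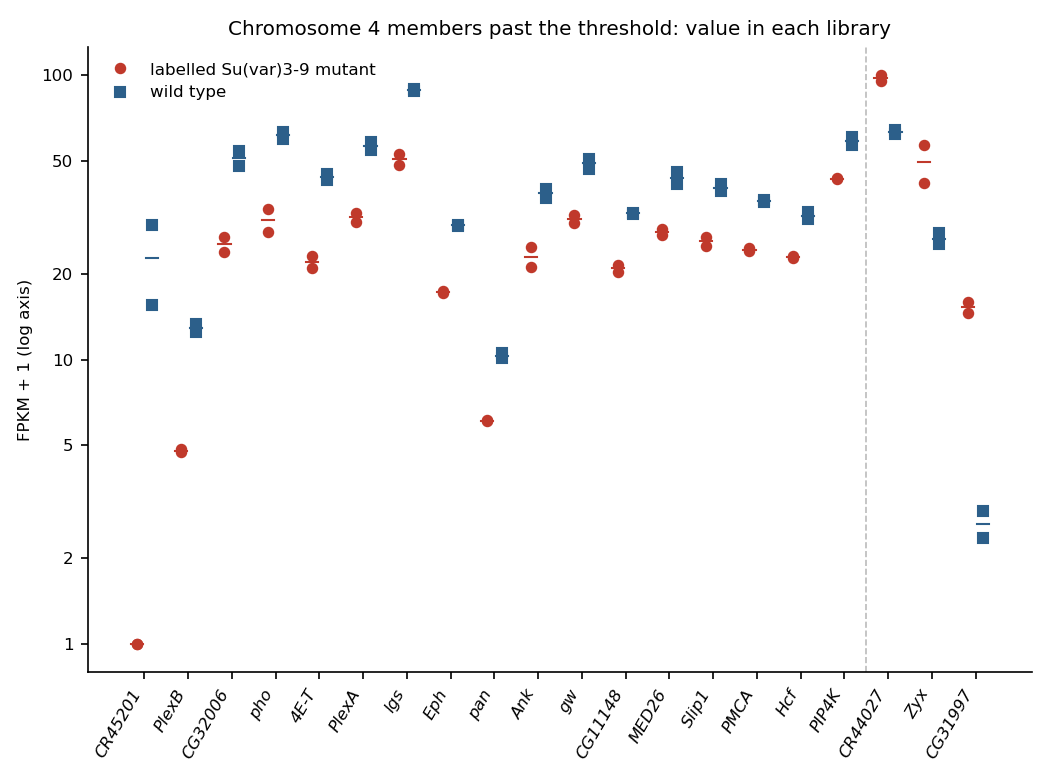
Level (FPKM + 1, log axis) of the 20 members past the threshold in each of the 4 libraries, circles for the mutant-labelled libraries and squares for the wild type, with bars at the means. To the left of the dashed line stand the 17 lower members and to the right the 3 higher ones, and the genotypes are apart in every column, from CR45201 (0 FPKM in the mutant-labelled libraries) to CG31997.

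Among proteins of synapses, muscle and vesicles (median log2 fold change -0.40) 2 of 8 members were lower, against 8.67% of all tested genes. None was higher, against 11.4%. After removal of the length trend Slip1 was lower, Ank did not pass (limma adjusted p = 0.166), and the median was -0.12. Ank encodes ankyrin, which ties membrane proteins to the cytoskeleton. It was at 23.8 and 20.2 FPKM in the mutant-labelled libraries, against 38.9 and 36.1 FPKM in wild-type libraries (-0.75, SE 0.13, limma adjusted p = 0.0301). Slip1, a binding partner of the potassium channel Slowpoke, was at 26.1 and 24.1 FPKM in the mutant-labelled libraries, against 38.1 and 40.4 FPKM in wild-type libraries (-0.62, SE 0.10, adjusted p = 0.0282). Cals, a calsyntenin, was at 26.6 and 22.5 FPKM in the mutant-labelled libraries, against 37.2 and 35.1 FPKM in wild-type libraries. Its genotypes were separate, but it was just short of the threshold (-0.55, adjusted p = 0.0548). With the length trend removed Cals came to -0.17 (limma adjusted p = 0.493). The other 5 members, Syt7, bt, unc-13, CaMKII and Caps, did not pass and had means of 1.35 to 14.9 FPKM. Many of these genes act in neurons, and of the 6 neuron markers, summed at 20.5 and 19.4 FPKM in the mutant-labelled libraries, against 21.4 and 23.0 FPKM in wild-type libraries, 2 were tested. The synaptic scaffold gene brp was lower (log2FC -2.05, adjusted p = 0.0129) and the vesicle gene nSyb was higher (0.91, adjusted p = 0.0243). None of the 6 was at 0 in every library, and the part of neurons in these values was not tested.

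The muscle protein gene bt (projectin) was at 1.72 and 1.96 FPKM in the mutant-labelled libraries, against 3.90 and 5.14 FPKM in wild-type libraries, and did not pass (log2FC -0.95, SE 0.24, limma adjusted p = 0.0666). Its longest annotated transcript has 27666 bases. With the length trend removed its log2 fold change was -0.09 (limma adjusted p = 0.719). The gene bt is itself 1 of the 10 muscle markers. Their summed level, bt included, was 241 and 285 FPKM in the mutant-labelled libraries, against 237 and 237 FPKM in wild-type libraries. Of the 9 tested, bt included, sls, the gene of another giant muscle protein, was lower and none was higher. The part of muscle in the values of bt was not tested.

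Of the 4 genes of ion pumps and transporters (median log2 fold change -0.29) 1 was lower, against 8.67% of all tested genes. The other 3 did not pass. Once the length trend was removed the median was -0.10, and PMCA did not pass (limma adjusted p = 0.272). JYalpha, a sodium and potassium pump subunit required for male fertility, was at 71.5 and 63.3 FPKM in the mutant-labelled libraries, against 85.1 and 84.0 FPKM in wild-type libraries (log2FC -0.33, SE 0.09, limma adjusted p = 0.0851). It had the highest level of the list and did not pass. PMCA, the calcium pump of the plasma membrane, was the lower member, at 23.6 and 23.2 FPKM in the mutant-labelled libraries, against 35.6 and 35.0 FPKM in wild-type libraries (-0.57, adjusted p = 0.0280). Its exons overlap those of CG32850 on the other strand over 40.5% of their length, and CG32850 was listed at 0 in all libraries. Zip102B, of a zinc transporter family, was at 23.6 and 24.5 FPKM in the mutant-labelled libraries, against 24.9 and 26.6 FPKM in wild-type libraries (-0.09, SE 0.10).

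Of the 3 genes of lipid kinases, GTPases and membrane traffic 1 was lower, against 8.67% of all tested genes. This was PIP4K, which phosphorylates a phosphoinositide. It was at 42.5 and 42.1 FPKM in the mutant-labelled libraries, against 55.8 and 59.7 FPKM in wild-type libraries (log2FC -0.44, SE 0.09, limma adjusted p = 0.0403). Its exons overlap those of CG33521, also listed at 0, over 20% of their length. The GTPase gene Arl4 was at 27.8 and 30.2 FPKM in the mutant-labelled libraries, against 41.6 and 35.6 FPKM in wild-type libraries (-0.40, adjusted p = 0.0999).

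None of the 6 genes for protein kinases, motors, repair and turnover passed by limma, against 20.1% of all tested genes. An unadjusted p under 0.05 was reached by 2 of the 6, against 3989 of all 10784 tested genes. Rad23, which carries ubiquitinated proteins to the proteasome, was at 63.7 and 64.0 FPKM in the mutant-labelled libraries, against 87.7 and 78.6 FPKM in wild-type libraries (log2FC -0.37, limma adjusted p = 0.0605). Pur-alpha, a nucleic acid binding protein, was at 8.18 and 5.79 FPKM in the mutant-labelled libraries, against 9.35 and 11.1 FPKM in wild-type libraries. The kinase gene Asator was at 5.32 and 4.94 FPKM in the mutant-labelled libraries, against 8.19 and 8.61 FPKM in wild-type libraries (-0.62, adjusted p = 0.0667). For all 3 the mutant-labelled libraries lay below both others, as they did for 32.7% of all tested genes. In the other direction, the kinase gene Dyrk3 was at 5.97 and 5.31 FPKM in the mutant-labelled libraries, against 3.29 and 4.22 FPKM in wild-type libraries (0.49, adjusted p = 0.182). With the length trend removed Asator came to -0.15, Rad23 to -0.42 and Dyrk3 to 0.71 (limma adjusted p = 0.533, 0.0636 and 0.0841).

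The 42 members in a role list thus held 15 of the 17 lower members and none of the 3 higher ones, with a median log2 fold change of -0.49. Of the 42, 35.7% were lower, against 8.67% of all tested genes. Among the 26 members in no role list, 3 were higher (11.5%), 2 were lower (7.69%) and 21 did not pass (median log2 fold change 0.08). Of these 26, 13 had a fold change below 0 and 13 above it. The difference between the lists was not tested. The members with a role list also had longer transcripts, with a median of 4948 bases, against 1549.5 bases for those without. Once the length trend was removed the median log2 fold change was -0.21 with a role list and 0.04 without.

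**Figure D3:**
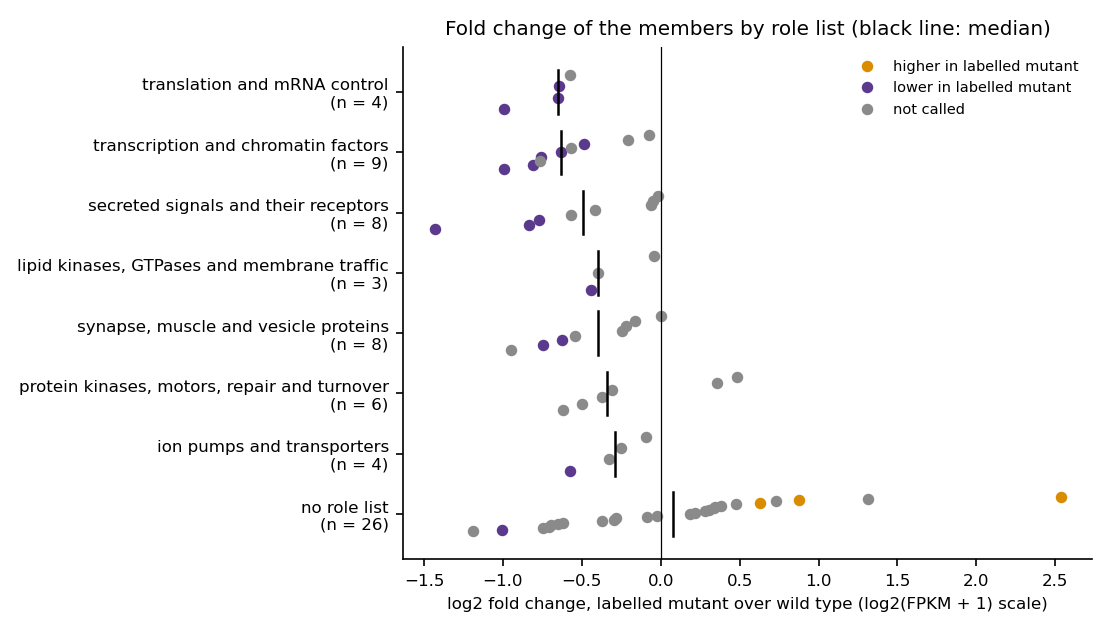
Fold change (log2, labelled mutant over wild type, on the log2(FPKM + 1) scale) of the members of each role list, CR45201 not drawn, with a black line at the median over the whole list, purple points for lower, orange for higher and grey for members that did not pass. The medians of the 7 role lists lie between -0.65 and -0.29, and that of the 26 members in no list lies at 0.08.

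CG31997, a protein-coding gene of chr4:154654-156060, had the largest rise. It was at 15.01 and 13.6 FPKM in the mutant-labelled libraries, against 1.37 and 1.94 FPKM in wild-type libraries (log2FC 2.53, SE 0.20, limma adjusted p = 0.00964). The libraries were far apart, but the values rested on an estimated 7.44 and 5.95 fragments in the mutant-labelled libraries and 1.07 and 1.80 in wild-type libraries, so the size of the rise is uncertain. Its neighbour CG32006, which ends 1115 bases before it, moved the other way, at 23.0 and 26.1 FPKM in the mutant-labelled libraries, against 53.4 and 47.1 FPKM in wild-type libraries (-1.004, SE 0.12, adjusted p = 0.0164).

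Zyx encodes zyxin, a protein of cell adhesions that also acts in Hippo signalling. It was at 56.1 and 40.8 FPKM in the mutant-labelled libraries, against 24.4 and 26.8 FPKM in wild-type libraries (log2FC 0.88, SE 0.19, limma adjusted p = 0.0450). Both mutant-labelled libraries were above the wild type, though they also differed from each other, with a mean of 48.5 ± 10.8 FPKM (SD, n = 2). Exons of Zyx overlap those of Rfabg, the gene of a lipid carrier of the blood, on the other strand over 4.04% of their length, and Rfabg was at 5.14 and 4.11 FPKM in the mutant-labelled libraries, against 8.28 and 8.47 FPKM in wild-type libraries (-0.74, adjusted p = 0.0613). With the length trend removed Rfabg came to -0.15 (limma adjusted p = 0.629). The sources used here do not say whether counting used strand, so fragments of overlapping genes could be split between them.

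Of the 7 non-coding members 1 was higher, 1 was lower and 5 did not pass. Over all tested genes 11.4% were higher and 8.67% lower. CR44027, an antisense RNA gene, was at 94.6 and 99.0 FPKM in the mutant-labelled libraries, against 61.2 and 63.4 FPKM in wild-type libraries (log2FC 0.63, SE 0.08, limma adjusted p = 0.0164). Its exons overlap those of Lin29, now dati, over 37.6% of their length, and Lin29 was at most 0.518 FPKM in any library. CR45201, with a transcript of 211 bases, was listed at 0 in both mutant-labelled libraries, against 14.6 and 28.8 FPKM in wild-type libraries. These wild-type values rested on an estimated 1.99 and 3.996 fragments, so the listed 0 is not read as absence and no fold change is given.

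A few members were unstable between replicates. CR45126 was at 0 and 5.16 FPKM in the mutant-labelled libraries and at 0 in both wild-type libraries. CG11077, now Mpv17, was at 9.99 and 0 FPKM in the mutant-labelled libraries, against 11.1 and 3.73 FPKM in wild-type libraries. Its exons overlap those of the antisense gene CR44031 over 94.6% of their length, so its level is uncertain. CG11076, next to it, was at 83.3 and 70.8 FPKM in the mutant-labelled libraries, against 59.7 and 57.5 FPKM in wild-type libraries. It did not pass (log2FC 0.38, limma adjusted p = 0.0860). Exons of CG11076 overlap those of ATPsyn-beta on the other strand over 13% of their length. ATPsyn-beta was at 117.5 and 109.6 FPKM in the mutant-labelled libraries, against 88.1 and 80.9 FPKM in wild-type libraries. The part of this overlap in the values of CG11076 was not tested.

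Along the chromosome the lower members ran from PlexB, which starts at 32478, to PIP4K, which ends at 1196848 in dm6. When the members were divided by position into 4 blocks of 17, the blocks held 4, 3, 7 and 3 lower members from the lowest coordinate on. These were 23.5%, 17.6%, 41.2% and 17.6% of each block, against 8.67% of all tested genes. Of the 67 pairs of neighbouring members, 5 had both genes lower (pan and Ank, PMCA and Hcf, gw and Slip1, 4E-T and CR45201, and pho and PIP4K). Of these, 1 pair rests on CR45201, as does 1 of the 7 lower members in the third block. The longest run of lower members held 2 genes. For comparison, the share of tested genes that were lower was 5.24% on X, between 8.71% and 10.1% on the large arms 2L, 2R, 3L and 3R, and 22.2% (4 of 18 genes) on Y. The median transcript was 3744 bases on Y and 3497 bases over the tested genes of chromosome 4. On X and the large arms it was between 1594.5 and 1914 bases, and length was not taken out of these shares. On the plus strand 5 of 30 members were lower (16.7%) and 1 was higher (3.33%). On the minus strand 12 of 38 were lower (31.6%) and 2 were higher (5.26%). Over all tested genes 8.67% were lower and 11.4% higher.

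By level, 12 of the 17 lower members had a mean of 20 to 50 FPKM. Of 17 members with a mean of 20 to 50 FPKM, 12 were lower (70.6%), where 14.6% of all 1701 tested genes of that level were. These 17 had a median transcript of 4989 bases, against 1717 bases for all tested genes of that level. With the length trend removed 4 of the 17 were lower, against 151 of all 1701 tested genes of that level. Among 16 members under 5 FPKM none passed in either direction by limma, and 6.24% of all tested genes of that level were lower. Of the 16, 1 had an unadjusted p under 0.05, against 542 of the 2822 tested genes of that level. From 5 to 20 FPKM, CR45201 included, 3 of 26 members were lower (11.5%), against 8.7% of all tested genes of that level. Of 9 members of at least 50 FPKM, 2 were lower and 1 was higher. In all tested genes of that level 28.8% were higher and 7.49% lower.

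Transcript length moved with these differences. The median of the longest annotated transcript was 3625.5 bases over the members and 1704 bases over all tested genes. Of 23 members over 5000 bases, 10 were lower (43.5%) and none was higher, and of all 1018 tested genes over 5000 bases 26.4% were lower and 0.982% higher. The median log2 fold change of that class was -0.64 in the members and -0.46 in all tested genes. From 2000 to 5000 bases 4 of 26 members were lower (15.4%), against 9.96% of all tested genes. Up to 1000 bases 1 of 9 members was lower, which was CR45201, against 5.57% of all tested genes, and 2 were higher (22.2%), against 20.9%. From 1000 to 2000 bases 2 of 10 were lower, against 4.63%.

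After a loess trend on transcript length was taken out of each library, 8 members were lower and 1 was higher, against 5.78% lower and 7.81% higher of all 10766 genes in that fit. The median log2 fold change of the members was -0.17 there, against 0.00 over all genes. All 9 had been called in the same direction before. The 8 lower ones were PlexB, CG32006, lgs, Slip1, 4E-T, CR45201, pho and PIP4K, and the higher one was CG31997. Without CR45201 7 were lower. The fold change of pho hardly moved (-0.99, limma adjusted p = 0.0197) and that of PlexB became -0.999 (adjusted p = 0.0202). Hcf came to -0.01 (adjusted p = 0.934) and PlexA to -0.27 (adjusted p = 0.110). CR44027 and Zyx were just short of the threshold after that step (adjusted p = 0.0535 and 0.0517).

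**Figure D4:**
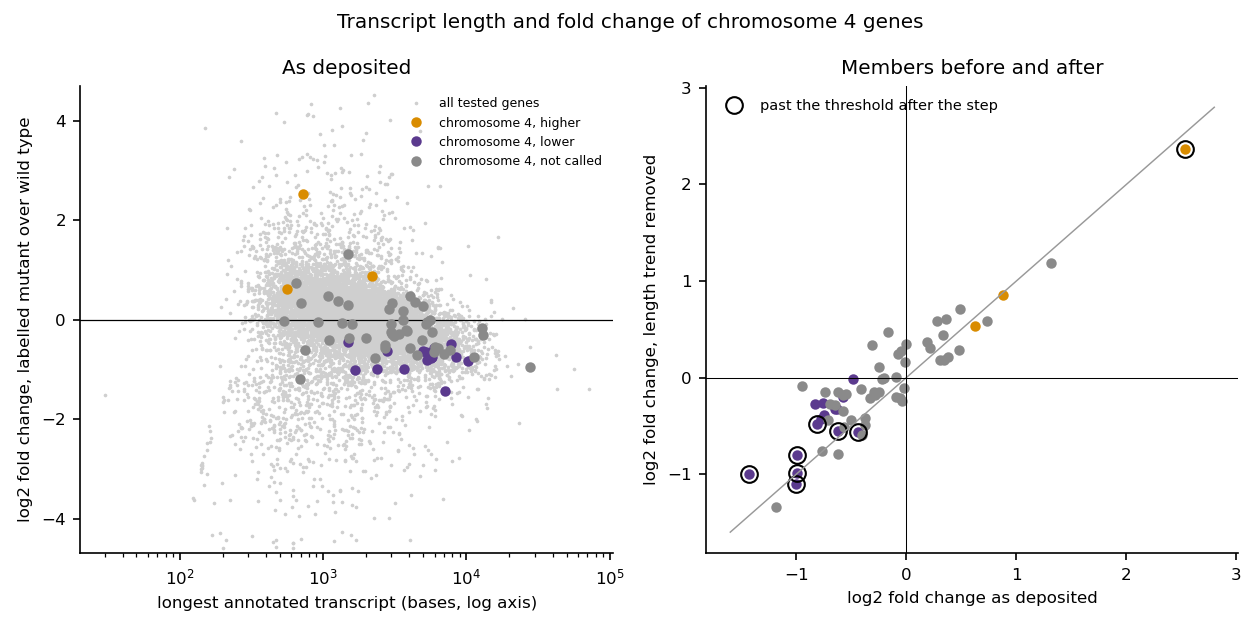
Left, fold change (log2, labelled mutant over wild type) against the longest annotated transcript (bases, log axis) for all tested genes (small grey points, 47 genes beyond 4.6 on the log2 scale not drawn) and 67 members (large points, by call, CR45201 not drawn). Right, fold change of the members before and after the length trend was removed, with the line of equal values and circles around the 8 drawn members past the threshold after the step; many long members move towards 0 while pho and CG32006 stay near -1.

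Of 8 regulators of this chromatin encoded on other chromosomes (Pof, egg, wde, the HP1a gene, Su(var)3-7, Su(var)3-9, G9a and JIL-1) none passed in either direction by limma, and wde, Su(var)3-7, G9a and JIL-1 had an unadjusted p under 0.05, all lower. Pof, whose protein binds chromosome 4 genes, was at 754 and 720.4 FPKM in the mutant-labelled libraries, against 676 and 683 FPKM in wild-type libraries (log2FC 0.12, SE 0.05, limma adjusted p = 0.176). The methyltransferase gene egg was at 4.89 and 3.50 FPKM in the mutant-labelled libraries, against 5.55 and 6.48 FPKM in wild-type libraries (-0.44, adjusted p = 0.245). The HP1a gene was at 104 and 87.7 FPKM in the mutant-labelled libraries, against 80.6 and 79.6 FPKM in wild-type libraries (0.25, adjusted p = 0.186). For all 8 genes the genotypes did not overlap, and the differences missed the threshold. Over all tested genes 32.7% were lower and 32.2% higher without overlap, and 3989 of 10784 had an unadjusted p under 0.05.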

How the data were processed

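RNA of whole testes was sequenced on a MiSeq from TruSeq libraries, per the labels' protocols, with 2 libraries of each genotype. TopHat, Cufflinks and dm6 are named in the submitters' processing notes, and the sources used here do not give their versions, settings, annotation or use of strand. The deposited tables hold FPKM per gene, made by the authors with Cufflinks per the file headers. FPKM rows of the same name were summed, genes averaging 1 FPKM or more were kept, and log2(FPKM + 1) was tested with limma 3.58.1 in R 4.3.3 (trend on the mean, Benjamini-Hochberg adjustment over all 10784 genes, threshold 0.05). Fold changes on that scale understate the change of low genes. Fragments were estimated from the FPKM and its deposited 95% interval. The length step took a loess curve (span 0.5, degree 1) on log transcript length out of each library. Loci were written 1-based in dm6, and all 68 members matched a reference gene. The fit was tested on simulated data. Members, role lists and tests were chosen with earlier results of these data known. The rule named called members, the 10 with the highest mean, the top 3 of each role list and the member nearest to a fold change of 0. All other members were named after their values were seen. Nothing in the labels beyond the word biological ties libraries to separate flies, so p-values measure the spread between these libraries.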

Additional observations from a re-analysis of the deposited data

How the results depend on the processing

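The median log2 fold change of the members stayed below 0 under all 15 alternatives. It was -0.28 with a pseudocount of 5, -0.49 with a mean of at least 5 FPKM, -0.31 with quantile normalization, -0.32 with median centring and -0.17 with the length trend removed. With the length trend removed 1 member was higher and 8 were lower, and without a mean-variance trend 1 was higher and 10 were lower, against 4.58% and 5.65% of all genes. With the replicate number as a block (replicate block) 2 were higher and 11 were lower, against 9.97% and 5.53% of all genes. The labels mark no shared batch, same-numbered libraries did not deviate together (r = -0.05 over 10784 genes), and the samples share only a number. Leaving out each library in turn gave 0 to 0 higher and 0 to 1 lower members. The cause of these changes was not tested, except that such a fit has fewer libraries. Members near a fold change of 0 changed sign. Zip102B came to 0.0080 with the length trend removed, and with median centring CR43437 came to 0.029 and Arf102F to 0.011. Leaving out a library gave -0.11 to 0.061 for CR43437, -0.14 to 0.024 for Crk and -0.23 to 0.15 for Arf102F. The summed level of the members was lower in the libraries labelled mutant under each alternative that gave a sum. Depth limits the low members, as 8 had under 10 estimated fragments in every library, CG31997 among them.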
